A study of Homo sapiens with 4 samples.

Results

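Cytosolic ribosomal protein genes encode the proteins of the ribosome that translates nuclear mRNAs. They were chosen as protein-coding rows of the deposited table with a symbol of RPL or RPS followed by a number, a P stalk name or A, without the RPS6 kinases and Y-linked copies. This gave 85 of 20348 genes, of which 53 belong to the large subunit and 32 to the small subunit. Of the 85, 77 are the ubiquitous genes and 8 are paralogues, which are RPL3L, RPL7L1, RPL10L, RPL22L1, RPL26L1, RPL36AL, RPL39L and RPS27L. FAU, which encodes a ribosomal protein fused to ubiquitin-like sequence, and the ribosome-bound scaffold RACK1 have other kinds of symbol and were read apart.

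The libraries came from K562 (established from a patient with chronic myeloid leukemia) and THP-1 (established from a patient with acute monocytic leukemia), both human lines. Cells received DMSO, or periplocin at 100 nM, and were harvested after 72 h. At this dose and time the paper reports more apoptotic cells and a smaller S phase fraction in both lines. Periplocin is a cardiac glycoside of plant origin. Poly-A RNA was sequenced from 1 library per line and treatment, 4 in all. For these libraries the sources name no other treatment or genetic change. The paper also made HDAC10 knockdown lines from K562 and THP-1, which are not among these libraries. The sample titles call the controls blank, whereas the library names and the methods name DMSO. Total expected counts, which are the estimated reads of each gene summed over genes, were between 16381149 and 20622694 per library. The 6 erythroid markers, among them HBG1, HBG2, HBZ, GATA1 and KLF1, were lower in THP-1 than in K562 in both treatments, and 6 of 6 monocytic markers in DMSO and 5 of 5 tested in periplocin were higher in THP-1, where MPO was at only 2.08 and 0.79 CPM (counts scaled to a fixed library total). Of the B and T cell genes, MS4A1 was at 0 in all libraries and CD3D reached 7.39 CPM in K562.

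Most ribosomal proteins have a single copy in each ribosome, and cells make the proteins in matched amounts together with ribosomal RNA. Most of the mRNAs begin with a C followed by a run of pyrimidines, the terminal oligopyrimidine (TOP) tract, by which their translation follows growth signals through mTOR and LARP1. Some genes have a paralogue elsewhere in the genome, often a retrocopy or an old duplicate, whose product can replace the parent protein or is used in particular tissues.

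The start of transcription is where the TOP tract lies, so the start windows of members that the results turn on are shown here. Each runs from 10 bases before to 20 bases after the start that RefSeq gives on GRCh38.p14, 5′ to 3′ on the strand of the gene, with capitals for the longest run that begins with C within 5 bases of the start and goes on with at least 4 bases of C or T. The first group holds genes that were among the lowest in periplocin, the next RPL24 and RPS15, which stayed near their DMSO level in K562, and the last 4 pairs of a parent and its paralogue. RPL26L1 has a pair of starts in RefSeq, and the first is shown.
RPLP0 at chr12:120201092-120201121, minus strand: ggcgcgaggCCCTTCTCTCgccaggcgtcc
RPS18 at chr6:33272065-33272094, plus strand: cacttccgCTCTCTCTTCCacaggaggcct
RPS6 at chr9:19380217-19380246, minus strand: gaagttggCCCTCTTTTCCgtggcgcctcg
RPL3 at chr22:39319604-39319633, minus strand: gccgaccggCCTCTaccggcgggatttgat
RPL12 at chr9:127451387-127451416, minus strand: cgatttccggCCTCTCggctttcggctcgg
RPS4X at chrX:72277229-72277258, minus strand: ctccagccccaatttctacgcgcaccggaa
RPL10A at chr6:35468391-35468420, plus strand: aagacatgctagtCTCTTTTCCggttagcg
RPL24 at chr3:101686699-101686728, minus strand: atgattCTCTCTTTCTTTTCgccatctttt
RPS15 at chr19:1438386-1438415, plus strand: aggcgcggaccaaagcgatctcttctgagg
RPL36A at chrX:101391001-101391030, plus strand: ctcgcggtttCTTTCTTTCCgcgccgatag
RPL36AL at chr14:49620607-49620636, minus strand: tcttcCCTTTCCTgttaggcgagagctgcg
RPS27 at chr1:153990752-153990781, plus strand: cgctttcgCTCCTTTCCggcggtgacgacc
RPS27L at chr15:63157458-63157487, minus strand: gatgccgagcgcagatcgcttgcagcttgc
RPL26 at chr17:8383174-8383203, minus strand: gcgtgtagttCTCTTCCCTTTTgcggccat
RPL26L1 at chr5:172958719-172958748, plus strand: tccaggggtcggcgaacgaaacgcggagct
RPL22 at chr1:6199576-6199605, minus strand: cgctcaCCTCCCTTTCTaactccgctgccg
RPL22L1 at chr3:170870176-170870205, minus strand: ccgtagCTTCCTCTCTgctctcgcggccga
In these windows RPL24 carries the longest tract, with 14 bases, RPL26 has 12, RPS18, RPS6 and RPL22 have 11, RPL3 has the shortest one with 5 bases, and RPS4X, RPS15, RPS27L and RPL26L1 have no such run. By this limit and these annotated starts, genes with and without a tract thus occur among those lowest in periplocin and among those near their DMSO level. RPS15 does hold a run of C and T farther downstream in its window, beyond the limit of 5 bases. Only the strand of the gene was searched, since the tract is read in the mRNA, and no other motif was searched.

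RefSeq promoters were found for 62 of the 77 ubiquitous genes, and in 46 of them (74.2%) the tract began exactly at an annotated start. The share was 7.13% among 10638 expressed coding genes outside the family and 5.14% among all 27305 promoters. With the first C allowed within 5 bases on either side, the tract was in 53 of 62 ubiquitous genes (85.5%), in 2 of 6 paralogues and in 29.4% of the expressed coding genes outside the family. The ubiquitous genes with a tract had a median log2 ratio of periplocin to DMSO of -0.82 in K562 and -0.96 in THP-1, and the 9 without one had -0.69 and -0.69. In expressed coding genes outside the family the medians with and without a tract were -0.06 and 0.02 in K562. In THP-1 they were -0.05 and -0.01. The 20 genes with other TOP mRNAs, described further on, had the tract in 12 of 14 promoters found. These 12 had medians of -0.56 in K562 and -0.465 in THP-1, and the 2 without a tract had -0.91 and -0.56. Whether the tract bears on the ratio was not tested. A match is a description of these letters and does not show how an mRNA is used.

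The ribosomal protein genes together took a smaller part of the mRNA in periplocin than in DMSO in both lines. They held 5.53% of all counts in K562 DMSO (exact binomial 95% interval 5.52 to 5.54) and 3.17% in K562 periplocin (3.16 to 3.18). In THP-1 they held 5.41% in DMSO (5.401 to 5.42) and 2.77% in periplocin (2.76 to 2.77). Both DMSO libraries therefore lay close together and both periplocin libraries lay below them, on a scale that is relative to the other mRNAs. The intervals cover counting error only. With 1 library per condition there is no spread between replicates, and no p-value is given for a comparison of a pair of libraries. Fewer cells that make much of an mRNA and less of that mRNA per cell cannot be told apart in bulk RNA, and the total RNA per cell was not measured.

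**Figure D1:**
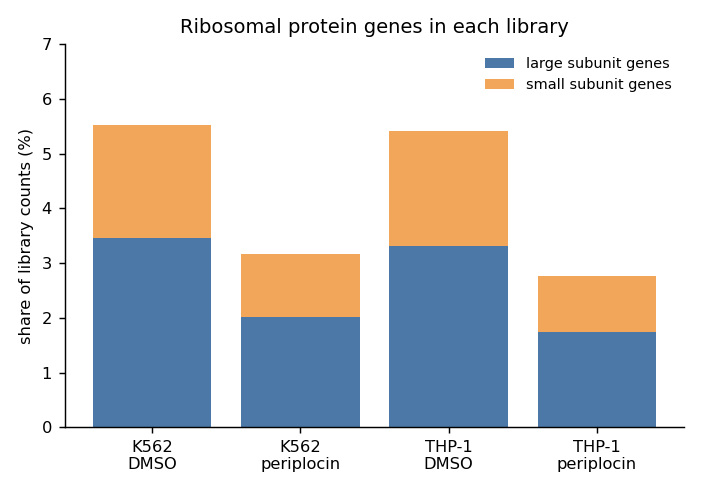
Share of library counts in percent (vertical axis, from 0) on the 53 large subunit and 32 small subunit genes, 1 bar per library. The whole bars reach 5.53% and 5.41% in DMSO and 3.17% and 2.77% in periplocin.

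Mitochondrially encoded mRNAs also took a smaller share in periplocin, falling from 5.62% to 2.07% in K562 and, in THP-1, from 5.24% to 3.92%. Without them in the total, the ribosomal protein share was 5.86% and 3.23% in K562 and, in THP-1, 5.71% and 2.88%, which is the same order. In K562 the 6 erythroid markers rose together, from 1809 to 8184 CPM in sum, while in THP-1 their sum was 3.25 and 1.98 CPM. Their part in the result was not tested. The 6 monocytic markers summed to 616.6 CPM in THP-1 DMSO and 634.9 CPM in THP-1 periplocin, with ITGAM higher by 1.5-fold (27.7 to 60.0 CPM), CD33 (65.6 to 42.9 CPM) and MPO lower, and 3 between.

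Gene by gene, the family was lower across nearly its whole width. Counts were scaled by TMM factors, and a gene was called where the ratio passed 1.5-fold where the mean over the pair was 1 CPM or more, which 83 of the 85 members had in every comparison. RPL3L and RPL10L did not reach it. In K562, 62 of 83 members were lower by 1.5-fold, against 22% of the 11862 genes tested, and 2 were higher, against 19%. In THP-1, 68 of 83 were lower, against 21.1% of 12341 genes, and 0 were higher, against 17.2%. The median log2 ratio of the members was -0.82 in K562 (quartiles -0.998 and -0.58) and -0.88 in THP-1 (quartiles -1.05 and -0.69), or 0.567 and 0.544 of the DMSO level, while the median of all tested genes was -0.01 and -0.02.

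Most members are abundant, so genes of at least 100 CPM are the nearer background. Among those, 57 of 74 members were lower in K562, against 12.6% of 2579 genes, and 62 of 72 in THP-1, against 11% of 2458 genes. The median of such genes outside the family was above 0, at 0.16 in K562 and 0.16 in THP-1. The mRNAs of the ubiquitous members are short, with a median of 750.5 nt over genes (the median length of each gene's complete coding transcripts in GENCODE release 29) and a median of 5 exons, against 2566 nt and 9 exons for expressed coding genes outside the family. Genes outside the family with such a length of at most 1000 nt had a median log2 ratio of 0.01 in K562 and -0.08 in THP-1, and at 100 CPM or more of 0.25 and 0.08.

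**Figure D2:**
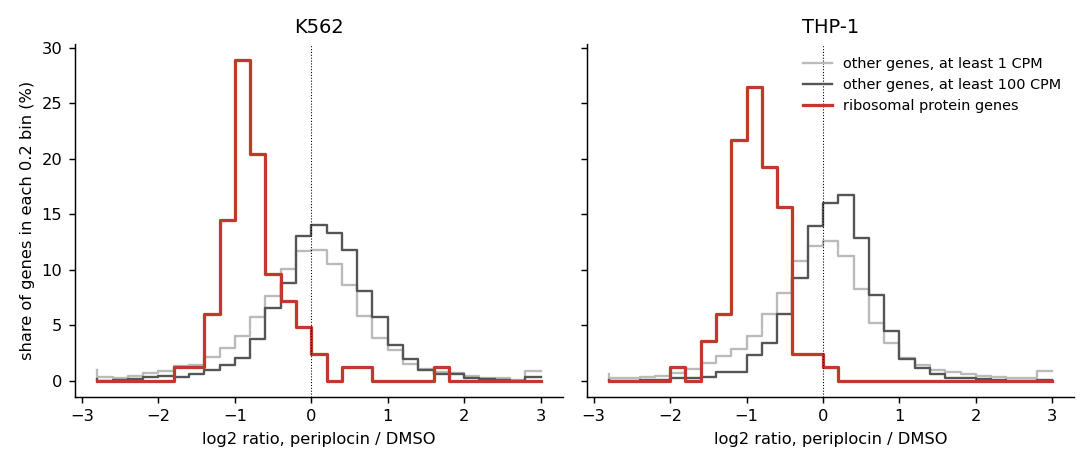
Share of genes in percent (vertical axis) by log2 ratio of periplocin to DMSO in bins of 0.2 (horizontal axis), with values beyond 3 put in the end bins, for K562 and THP-1. The ribosomal protein genes form a narrow peak around their medians of -0.82 and -0.88, and other genes center near 0.

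In both lines, 54 of 83 members were lower by 1.5-fold, against 8.08% of the 10779 genes tested in both, and 0 were higher in both. The 54 hold 32 large subunit genes, among them RPLP0, RPLP2, RPL3, RPL4, RPL5, RPL7, RPL7A, RPL10, RPL10A, RPL11, RPL12 and RPL41, and 22 small subunit genes, among them RPS2, RPS3, RPS3A, RPS4X, RPS6, RPS18 and RPSA, and no paralogue. Of the 77 ubiquitous genes, 76 had a ratio below 0 in both lines, and RPL24 in K562 was the exception. The ubiquitous genes that were not lower by 1.5-fold included RPL8, RPL13A, RPL18, RPL19, RPL21, RPL24, RPL27A, RPL28, RPL35, RPL38, RPS9, RPS13, RPS15, RPS26 and RPS27A in K562, and RPL6, RPL15, RPL23, RPLP1, RPS9, RPS13, RPS16, RPS26, RPS27 and RPS29 in THP-1. RPS9, RPS13 and RPS26 are in both groups. The members nearest to the threshold in K562 were RPS16 at -0.59 inside it and RPL38 at -0.57 outside, and in THP-1 RPS10 at -0.59 and RPS13 at -0.56.

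The ubiquitous genes varied little among themselves. Their log2 ratios had a standard deviation of 0.31 in K562 and 0.29 in THP-1, against 0.70 and 0.55 over genes of at least 100 CPM outside the family. Across the 77 genes the ratios of the lines correlated at 0.37 by Pearson and 0.37 by Spearman, given as a description of genes that share a library. In THP-1 the ratio was the lower one for 46 of the 77. Whether the response differed between the lines could not be tested with 1 library of each kind.

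**Figure D3:**
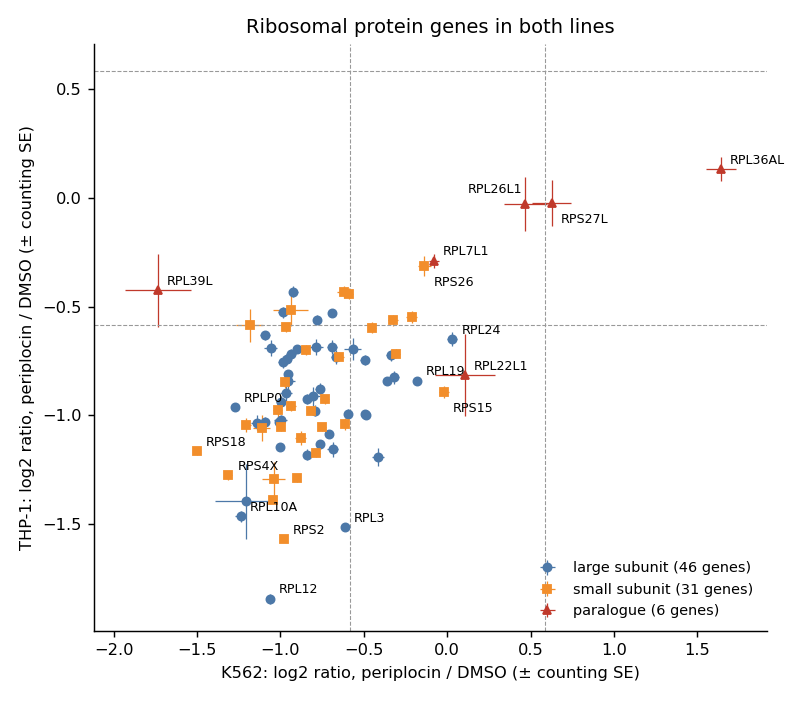
Log2 ratio of periplocin to DMSO in K562 (horizontal axis) and THP-1 (vertical axis) for 83 members, with bars of 1 standard error from counting, and dashed lines at 1.5-fold. Most ubiquitous genes lie in the lower left, RPL12, RPS2 and RPL3 lie lowest in THP-1, and RPL36AL lies alone at the right at 1.64 in K562.

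Among the lowest ratios in K562 of members with a mean of at least 10 CPM were those of RPS18, RPS4X, RPLP0 and RPL10A. RPS18, a protein of the head of the small subunit, was at 1354 CPM in K562 with DMSO and 481.7 CPM with periplocin, against 1058 CPM and 467.9 CPM in the same order in THP-1. Its log2 ratio was -1.502 (counting standard error 0.02) in K562 and -1.16 (0.02) in THP-1. RPS4X, an X-linked gene of a small subunit protein, went from 1307 to 530.5 CPM in K562 and, in THP-1, from 937.6 to 383.9 CPM, so its log2 ratios of -1.31 and -1.28 were near each other. RPL10A, a protein of the L1 stalk, through which used tRNA leaves, was at 391.5 and 167.3 CPM in K562 and at 618.5 and 222.3 CPM in THP-1. Both periplocin libraries were the lower ones for each of these genes.

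The lowest ratios in THP-1 of members with a mean of at least 10 CPM belonged to RPL12, RPS2, RPL3, RPL10A and RPS6. RPL12, at the base of the P stalk, was at 890.5 CPM in THP-1 DMSO and 245.9 CPM in THP-1 periplocin, which is 0.278 of the DMSO level (log2 ratio -1.84, counting standard error 0.02). In K562 it was at 629.4 and 303.8 CPM, a log2 ratio of -1.06. RPS2, which lines the mRNA entry channel, went from 2399 to 801.1 CPM in THP-1 and from 1921 to 980.4 CPM in K562. RPL3, which lies near the peptidyl transferase center, went from 2326 to 807.3 CPM in THP-1 and from 1630 to 1072 CPM in K562, so its log2 ratios were -1.52 and -0.62. RPS6, the substrate of the S6 kinases, went from 2225 to 841.6 CPM in THP-1 and from 1210 to 590.4 CPM in K562. RPL3 and RPS6 were higher in THP-1 than in K562 by 1.5-fold in DMSO (log2 ratios 0.63 and 0.999), and RPL3 had -0.24 in periplocin.

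At the other end, RPL24 and RPS15 had nearly the same level in both K562 libraries. RPL24, which forms a bridge between the subunits, was at 279.3 CPM in K562 DMSO and 287.3 CPM in K562 periplocin (log2 ratio 0.03, counting standard error 0.03), and at 307.6 and 194.6 CPM in THP-1 (-0.65). RPS15, a protein of the small subunit head, was at 270.6 and 269.1 CPM in K562 (-0.02) and at 385.7 and 205.9 CPM in THP-1 (-0.89). RPS26, at the mRNA exit channel, was at 171.8 and 157.4 CPM in K562 and at 118.6 and 94.6 CPM in THP-1, and its log2 ratios of -0.14 and -0.31 made it the ubiquitous gene with the smallest decrease in THP-1.

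The largest single contributions to the change in the summed level came from a few abundant genes, together a minor part of it. The family fell by 23623 CPM in K562 and by 26442 CPM in THP-1. In K562 the 5 largest contributions were from RPLP0, RPL4, RPS2, RPSA and RPS18, together 25.5% of the fall, and RPLP0 alone made up 10.03%. In THP-1 they were from RPS2, RPL3, RPS6, RPLP0 and RPL13A, together 24.4%, with RPS2 at 6.04%. RPLP0 was 7.35% of the family's counts in K562 DMSO and 5.35% in K562 periplocin, and 3.99% and 3.97% in THP-1.

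The genes of the large and the small subunit had similar medians. In K562, 37 of 51 large subunit genes and 25 of 32 small subunit genes were lower by 1.5-fold, with medians of -0.79 and -0.86. In THP-1 the counts were 43 of 51 and 25 of 32, with medians of -0.84 and -0.94. The large minus small difference of the medians was 0.07 in K562 and 0.10 in THP-1, and without the paralogues 0.06 and 0.07, beside standard deviations of 0.29 (large) and 0.35 (small) in K562 and of 0.28 and 0.32 in THP-1 among the genes of a subunit without paralogues. In summed counts, large subunit genes had 1.67 times the counts of small subunit genes in K562 DMSO (95% counting interval 1.67 to 1.68) and 1.77 times in K562 periplocin (1.76 to 1.78). In THP-1 the ratio was 1.57 (1.57 to 1.58) in DMSO and 1.69 (1.68 to 1.70) in periplocin. The ratio was thus higher in periplocin in both lines, by more than counting error. With 1 library per condition, how far replicate libraries differ in this ratio is not known. It was also higher per kb of transcript, at 1.44 and 1.498 in K562 and, in THP-1, 1.37 and 1.42.

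The P stalk, which recruits the GTPases of translation, consists of RPLP0 with RPLP1 and RPLP2. RPLP0 was at 4066 CPM in K562 with DMSO and 1696 CPM with periplocin, against 2158 CPM and 1099 CPM in the same order in THP-1, with log2 ratios of -1.27 and -0.96. RPLP1 was at 401.8 and 204.4 CPM in K562 and at 448.9 and 309.2 CPM in THP-1 (-0.99 and -0.53). RPLP2 was at 298.1 and 153.7 CPM in K562 and at 245.02 and 130.2 CPM in THP-1 (-0.97 and -0.90). All 3 were lower by 1.5-fold in K562 and 2 of 3 in THP-1, where RPLP1 was the exception. Over the family 62 of 83 members were lower in K562 and 68 of 83 in THP-1, and over all genes tested 22% and 21.1%.

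RPL5 and RPL11 assemble with the smallest ribosomal RNA and, outside the ribosome, bind MDM2 and so act on p53. RPL5 was at 1086 and 564.3 CPM in K562 and at 1235 and 699.8 CPM in THP-1. RPL11 was at 700.3 and 393.1 CPM in K562 and at 640.6 and 334.8 CPM in THP-1. Their log2 ratios lay between -0.81 and -0.95, near the family's medians.

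Of the 9 core genes of Diamond-Blackfan anemia, in which loss of 1 copy of a ribosomal protein gene impairs red cell formation, 8 were lower by 1.5-fold in each line, against 22% and 21.1% of all genes tested, and RPS26 was not. RPS19, the gene most often affected, went from 525.8 to 261.7 CPM in K562 and, in THP-1, from 354.9 to 178.7 CPM, log2 ratios of -1.02 and -0.98. RPS24 had -0.75 and -1.05, RPS7 had -0.85 and -0.70 and RPL35A had -0.79 and -0.69. RPS10 had -1.18 and -0.59 and was among the low members, at 63.2 CPM in K562 DMSO and 49.7 CPM in THP-1 DMSO. The medians of the group were -0.85 and -0.81, against -0.01 and -0.02 over all tested genes. Over the family they were -0.82 and -0.88, with 62 and 68 of 83 members lower. The medians of this group thus lay near those of the family.

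Of the 7 genes for proteins at the exit of the peptide tunnel, where chaperones and the signal recognition particle dock, 5 were lower by 1.5-fold in K562, against 22% of all genes tested, and 7 in THP-1, against 21.1%. RPL19 and RPL35 were the exceptions in K562. RPL19 was at 722.3 and 640.5 CPM in K562 and at 891.6 and 493.6 CPM in THP-1 (-0.18 and -0.84). RPL35 was at 234.7 and 177.4 CPM in K562 and at 205.6 and 89.2 CPM in THP-1 (-0.41 and -1.19). RPL26, RPL31 and RPL17 lay between -0.66 and -0.998 in K562 and between -0.73 and -0.94 in THP-1. The medians of the 7 genes were -0.99 in K562 and -0.84 in THP-1. Over the family the medians were -0.82 and -0.88, with 62 and 68 of 83 members lower.

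The paralogues mostly had ratios nearer to 0 or above it. Of the 6 with enough counts, 2 were higher, 1 was lower and 3 lay between in K562, and 1 was lower and 5 lay between in THP-1. Of all genes tested, 19% were higher and 22% lower in K562, and 17.2% and 21.1% in THP-1, so counts among so few paralogues are no result about them. Their medians were 0.29 in K562 and -0.16 in THP-1, against -0.84 and -0.91 for the ubiquitous genes. The summed level of the paralogues was 0.0385% of counts in K562 with DMSO and 0.0419% with periplocin, against 0.0364% and 0.0317% in the same order in THP-1, so they were a very small part of the family. Most of this sum was RPL7L1, with 5169 of 6312 and 4984 of 6941 counts in K562 and 5033 of 7507 and 3511 of 5615 in THP-1. The 8 genes are not replicates of each other, and the share of each in its pair is given next.

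RPL36AL, a copy of RPL36A (chromosome 14 and chromosome X), differed most. It had 330 counts (20.1 CPM) in K562 with DMSO and 1049 (63.3 CPM) with periplocin, against 1398 (67.8 CPM) and 1305 (73.6 CPM) in the same order in THP-1. K562 DMSO was the low library and the other three lay close together. Its log2 ratio was 1.64 (counting standard error 0.09) in K562 and 0.13 (0.06) in THP-1. RPL36A fell in the same libraries, from 338.3 to 211.6 CPM in K562 and, in THP-1, from 298.4 to 132.7 CPM. The share of RPL36AL in the pair was 5.62% in K562 DMSO (exact binomial 95% interval 5.04 to 6.24), 23.0% in K562 periplocin (21.8 to 24.3), 18.5% in THP-1 DMSO (17.6 to 19.4) and 35.7% in THP-1 periplocin (34.1 to 37.3).

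RPS27L, a target gene of p53 and the paralogue of RPS27, had 257, 404, 410 and 344 counts in K562 DMSO, K562 periplocin, THP-1 DMSO and THP-1 periplocin. Its log2 ratio was 0.63 (counting standard error 0.12) in K562 and -0.02 (0.11) in THP-1, while RPS27 had -0.62 and -0.44. Its share in the pair went from 6.30% (5.57 to 7.09) to 13.8% (12.5 to 15.1) in K562 and, in THP-1, from 5.36% (4.87 to 5.89) to 7.01% (6.31 to 7.76). Both shares were higher in periplocin beyond counting error, the only error these intervals cover.

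RPL26L1 had 213 and 300 counts in K562 and 297 and 248 in THP-1 (log2 ratios 0.47 and -0.03, counting standard errors 0.13 and 0.12), beside -0.998 and -0.94 for RPL26. Its share went from 2.32% (2.03 to 2.65) to 6.17% (5.51 to 6.88) in K562 and, in THP-1, from 3.19% (2.84 to 3.56) to 5.83% (5.14 to 6.57). RPL7L1, a nucleolar protein needed to make ribosomes rather than a part of the finished particle, had 5169 and 4984 counts in K562 and 5033 and 3511 in THP-1 (-0.08 and -0.29), beside -1.0007 and -1.15 for RPL7. Its share went from 23.4% (22.8 to 23.9) to 36.6% (35.8 to 37.4) in K562 and, in THP-1, from 15.4% (15.03 to 15.8) to 24.8% (24.1 to 25.6). RPL7L1 has the longer transcripts of that pair, and per kb its share was 8.18% and 14.4% in K562 and, in THP-1, 5.06% and 8.80%.

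RPL22L1 had 123 and 135 counts in K562 and 178 and 86 in THP-1, and RPL22 was at 513.9 and 304.7 CPM in K562 and at 562.1 and 303.5 CPM in THP-1. The share of RPL22L1 went from 1.44% (1.20 to 1.72) to 2.61% (2.19 to 3.08) in K562 and was 1.51% (1.2998 to 1.75) and 1.57% (1.26 to 1.94) in THP-1, where the intervals overlap. RPL39L, which is known mainly from testis, had 220 and 67 counts in K562 and 191 and 121 in THP-1 (-1.73 and -0.43, counting standard errors 0.20 and 0.17), beside -1.06 and -0.69 for RPL39. It was the only paralogue whose share went down in K562, from 4.66% (4.07 to 5.30) to 2.95% (2.30 to 3.74), and in THP-1 it was 4.16% (3.603 to 4.78) and 4.95% (4.13 to 5.89). RPL10L, the testis retrocopy of RPL10, had 2 counts in K562 with periplocin and 0 in the other libraries. RPL3L, the muscle paralogue of RPL3, had 0 counts in all 4 libraries beside at least 14307 counts of RPL3, and 3 counts would be at most 0.021% of that pair, so neither is given a ratio.

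**Figure D4:**
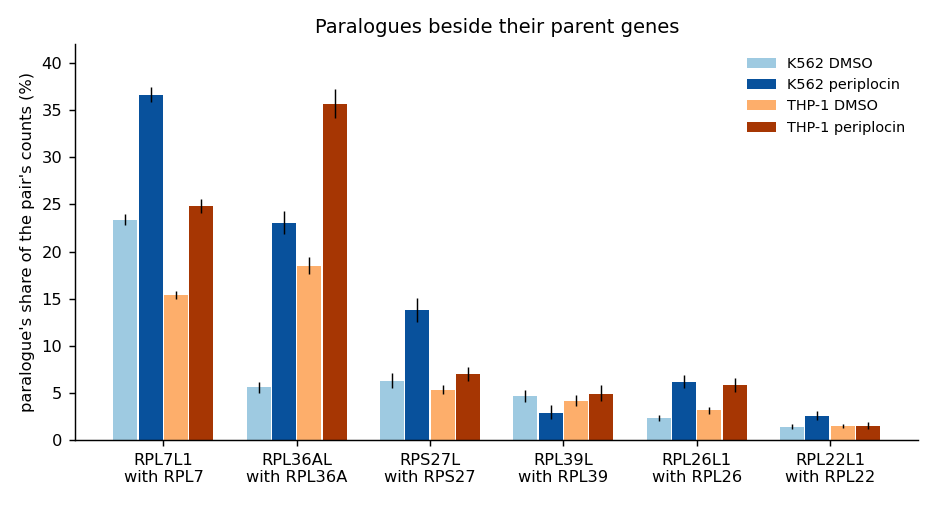
Paralogue counts as a percent of the counts of paralogue and parent together (vertical axis, from 0) in each of the 4 libraries, with exact binomial 95% intervals, for the 6 pairs with enough counts. The periplocin bar is above the DMSO bar of the same line for RPL7L1, RPL36AL, RPS27L, RPL26L1 and RPL22L1, and for RPL39L in THP-1 only. The THP-1 intervals of RPL22L1 and of RPL39L overlap, and RPL36AL reaches 35.7% in THP-1 periplocin.

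Levels of different genes were compared as CPM per kb of the median coding transcript, averaged over the 4 libraries. The highest were RPLP0 at 2039, RPL7A at 1682, RPS2 at 1598, RPS3A at 1434 and RPS18 at 1398 CPM per kb. In K562 DMSO these 5 ranged from 1986 to 3678 CPM per kb and in THP-1 periplocin from 778.5 to 993.9. RPLP0 was the highest member in both K562 libraries, RPS2 in THP-1 DMSO at 2513 CPM per kb and RPL15 in THP-1 periplocin at 1020 CPM per kb. The order also depends on the length used, since per coding kb RPL41 ranked 1 (30 per kb of transcript), RPLP0 ranked 2 and RPL13A ranked 3, while RPL7A and RPS3A ranked 8 and 11. The median over ubiquitous genes was 531.7 CPM per kb, 531.1 for the large and 553.2 for the small subunit. The lowest 5 were RPL3L and RPL10L near 0, RPL22L1 at 5.41, RPL39L at 11.2 and RPL23A at 13.9 CPM per kb.

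RPL23A, whose protein holds the signal recognition particle at the tunnel exit, was the only ubiquitous gene among the lowest 5. It had 205 and 90 counts in K562 and 282 and 91 in THP-1. GENCODE lists 91 pseudogenes named after it, the most of any member, and the family has 1145 in all with a median of 10 per ubiquitous gene. Reads of near-identical copies may be placed on either, so levels of single members, paralogues included, are uncertain, and how many reads this touches was not tested. Across the 77 ubiquitous genes the number of pseudogenes had a Spearman correlation of 0.04 with the level per kb, of -0.26 with the log2 ratio in K562 and of -0.11 with that in THP-1. Transcript length had 0.02 and -0.23 with these ratios and GC content 0.17 and -0.26, all as descriptions over genes of the same libraries. Readthrough genes that share exons with members held fewer counts than these members, with 282 to 495 for RPL17-C18orf32, 104 to 203 for RPL36A-HNRNPH2 and 9 to 147 for RPS10-NUDT3. In THP-1 DMSO and periplocin, RPS10-NUDT3 had 147 and 9 counts beside 1024 and 581 of RPS10. In the same order RPL17-C18orf32 had 361 and 495 beside 6699 and 3438 of RPL17. Their effect on the ratios of these members was not tested.

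**Figure D5:**
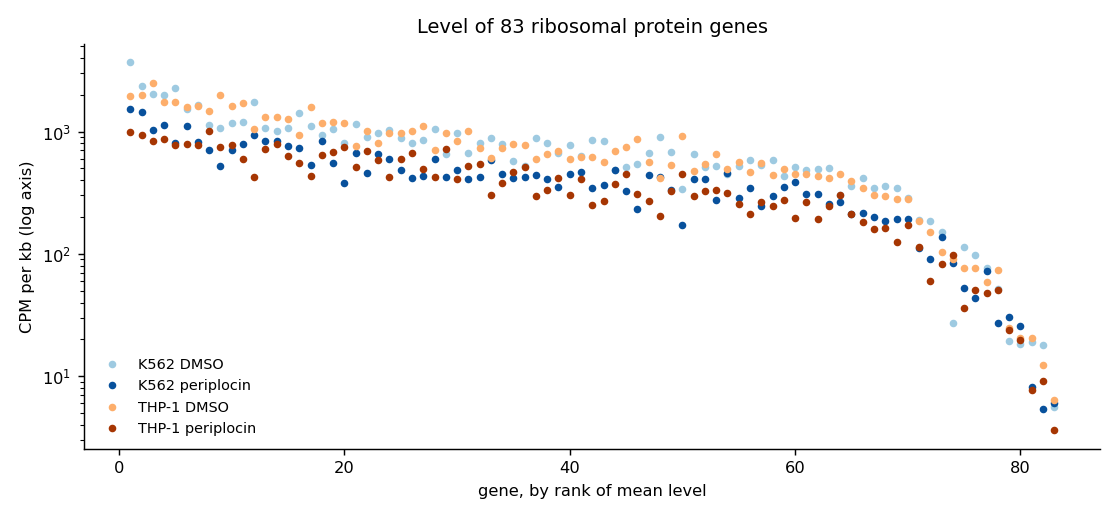
Level in CPM per kb (vertical axis, log scale) of the 83 members with a mean above 1 CPM per kb, ordered by their mean (horizontal axis, rank), with 1 point per library. Points of the periplocin libraries lie below those of DMSO for most genes, and the level drops steeply at the right end, where most paralogues and RPL23A lie.

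The same genes were also compared between the lines. In DMSO 15 of 83 members were higher in THP-1 than in K562 by 1.5-fold, against 31.4% of 12845 genes, and 3 were lower, against 30.2%. In periplocin 10 of 83 were higher, against 32.7% of 12846 genes, and 4 were lower, against 31.9%. Among genes of at least 100 CPM, 13 of 74 members were higher and 3 lower in DMSO, beside 718 and 547 of 2445 genes. At that level in periplocin 8 of 71 members were higher and 4 lower, beside 785 and 646 of 2652 genes. Fewer members than other genes thus differed by 1.5-fold between the lines. The standard deviation of the log2 ratio over members was 0.48 in DMSO and 0.49 in periplocin. The median of the members was 0.10 in DMSO and -0.06 in periplocin with TMM factors. With total counts it was -0.02 and -0.24, since that scaling moves all genes by -0.12 and -0.17, so no direction is given for the family as a whole.

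RPL29, which encodes a heparin-binding protein of the large subunit, was at 246.9 and 124.5 CPM in K562 and at 660.7 and 323.0 CPM in THP-1, so both THP-1 libraries were the higher ones at matched treatment. Its log2 ratio of THP-1 to K562 was 1.54 in DMSO and 1.55 in periplocin. RPL10, which forms part of the site where tRNA is bound, was at 1572 and 743.5 CPM in K562 and at 729.8 and 354.4 CPM in THP-1, log2 ratios of -0.99 and -0.90. RPSA, the laminin receptor, had -0.60 and -0.96, RPLP0 had -0.79 and -0.45, RPS6 had 0.999 and 0.69, RPS27 had 0.71 and 0.93 and RPL30 had 0.66 and 1.15. RPL36AL had 1.87 in DMSO and 0.39 in periplocin.

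The only fit with residual error joins the 4 libraries, with line and treatment as terms and 1 residual degree of freedom. For the cell line, edgeR's quasi-likelihood test with Benjamini-Hochberg adjustment called 36.4% of 13584 genes and 2 of 83 members, RPL29 (log2 difference 1.53, adjusted p = 0.00686) and RPL10 (-0.96, adjusted p = 0.040). DESeq2 with the same terms called 6 members, among 4619 of 13584 genes. For treatment, the same edgeR test called 0% of 13584 genes and 0 of 83 members, with adjusted p-values of members from 0.359 to 0.85. At an unadjusted p under 0.05 it had 57 of 83 members beside 11.3% of all genes, and DESeq2 called 14 of 83 members, all lower, among 125 of 11740 genes. The error in this fit is how far the lines differ in their response.

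Other genes of translation were read beside the family. FAU and RACK1, ribosome components outside the symbol rule, both had log2 ratios below 0 in both lines, and RACK1 was lower by 1.5-fold in both, from 29682 to 13972 counts in K562 and, in THP-1, from 32583 to 18314. FAU had log2 ratios of -0.44 and -0.35. Of 20 genes with other TOP mRNAs, 12 were lower by 1.5-fold in K562 and 9 in THP-1, and 0 were higher. All 20 had a mean of at least 100 CPM, and of all such genes 12.6% were lower in K562 and 11% in THP-1. Of all genes tested, 19% and 17.2% were higher. EEF1A1, the elongation factor that brings tRNA to the ribosome, had -0.97 and -0.60, EEF2, the translocase, -0.68 and -0.91, EIF3E -1.21 and -1.08 and EEF1B2 -0.98 and -1.24. TPT1 had -0.45 in K562 and 0.40 in THP-1, and EIF4A2 had 0.53 in K562 and -1.61 in THP-1. Their medians of -0.66 and -0.47 lay between those of the family and of all genes.

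Ribosome assembly factors, which process ribosomal RNA and load the proteins, had a median near that of the family in THP-1 and one nearer to 0 in K562, and this difference was not tested. In K562, 3 of 20 were lower and 1, SBDS, was higher by 1.5-fold, with a median of -0.23, beside 22% and 19% of all genes tested. In THP-1 14 of 20 were lower and 0 were higher, with a median of -0.89, beside 21.1% and 17.2%. NCL, the nucleolar protein nucleolin, went from 5414 to 6579 counts in K562 and, in THP-1, from 18366 to 8458, and FBL, which methylates ribosomal RNA, had log2 ratios of -0.59 and -1.28. The 78 mitochondrial ribosomal protein genes, whose products make the separate ribosome of mitochondria, had medians of 0.01 in K562 and -0.26 in THP-1, with 6 lower and 10 higher in K562 (22% and 19% of all genes tested) and 20 lower and 1 higher in THP-1 (21.1% and 17.2%). Both medians were nearer to 0 than those of the cytosolic family.

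Outside the family, the 5 genes whose profile over the 4 libraries lay nearest to the mean profile of the members, by root mean square distance of centered log2 CPM among 2510 genes of at least 100 CPM, were NUP210 (distance 0.02), EEF2 (0.04), EIF3F (0.07), PDCD2 (0.07) and NUP155 (0.08). Over the 77 members used here, the distance to that mean profile had a median of 0.21 and a maximum of 0.75. The 5 genes are thus the nearest of many over only 4 libraries. NUP210 and NUP155 encode proteins of the nuclear pore, and EEF2 and EIF3F were also on the list of TOP mRNAs. NUP210 was at 820.5 and 505.4 CPM in K562 and at 839.2 and 450.2 CPM in THP-1.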

How the data were processed

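Paired-end libraries were made from poly-A RNA of K562 and THP-1 cells, 1 for each line and treatment. The authors deposited 1 table of expected counts per gene, neither normalized nor pooled. The submitters' processing notes name HISAT2, StringTie 1.3.1 and hg38, and the labels name an Illumina instrument whereas the methods name T7. Between 87.4% and 88.3% of the values are whole to within 1e-08, and all were rounded. Symbols were found for 20310 genes, and 20118 were found in GENCODE release 29, from which coordinates on GRCh38 and lengths were taken. The table held 0 unused columns. Start sequences came from RefSeq.

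Log2 ratios used TMM factors over the pair and a prior of 0.5 count. Standard errors and intervals cover counting error only. edgeR 4.0.16 (glmQLFit and glmQLFTest) in R 4.3.3 was fitted over the 13584 genes that reached 10 counts in 2 or more libraries, with DESeq2 1.42.0 as alternative, and Python 3.11.15 served for the rest. The fit was also run on simulated counts. These had no difference between the lines and less spread than the data, so that run does not show how the fit performs here. Members, lists and named genes were chosen with earlier results of these data known. Named genes are paralogues and parents, RPS4X, fixed groups, the 5 highest and 5 lowest members in each comparison with a mean of at least 10 CPM and by level, members lower in both lines, and the 5 outside genes with the nearest profile. RPL13A, RPL15 as the top level in 1 library, the ubiquitous members that were not called or lay nearest to the threshold, and single genes of the other lists were named after their values were seen. The median transcript length was chosen after principal transcripts proved very long for a few members. Scaling, filters, fold thresholds, prior count and test were varied. Single values of a few genes are not reported here.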

Additional observations from a re-analysis of the deposited data

How the results depend on the processing

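Of the alternatives, 131 values stayed within their limits, 24 moved and 1 changed sign. A threshold of 2-fold left 19 members lower and 1 higher in K562 and 27 lower in THP-1, and a mean of at least 100 CPM left 0 higher in K562. Between the lines, total counts gave 6 members lower and 5 higher in THP-1 in DMSO, with a median of -0.0216 that changed sign, and 13 lower in periplocin with a median of -0.24, since that scaling moves every gene. A log2 threshold of 0.32 gave 14 lower and 26 higher in DMSO and 19 lower and 23 higher in periplocin, and 2-fold gave 0 lower and 2 higher in DMSO and 0 lower and 3 higher in periplocin. DESeq2 called 14 members for treatment and 6 for line, and the cause was not tested. Without mitochondrially encoded genes, the share of counts in K562 was 5.86% with DMSO and 3.23% with periplocin, and in THP-1 5.71% and 2.88%. TMM over all 4 libraries and other transcript lengths were added after seeing the data, and the median level of ubiquitous genes was 491.0 CPM per kb with principal transcripts and 937.9 per coding kb. The joint fit compares treatments within lines, as line is one of its terms, and no other block could be made with 1 library per condition. For the same reason no difference within a line has a replicate check.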
